A study of Mus musculus with 14 samples.

Results

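The insulin-like growth factor (IGF) system was followed through 10 genes chosen by symbol: the growth factors Igf1 and Igf2, the receptors Igf1r and Igf2r, the binding proteins Igfbp2, Igfbp3, Igfbp4 and Igfbp5, and the proteases Pappa and Pappa2. Of the 10, 9 had at least 1 probe set in the table, with 11 probe sets in all, among 16244 genes measured. Igfbp4 was not analysed here. The 10 genes were proposed with earlier results of these arrays known, so their levels are given as a description with no test.

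The study profiled neurons of the medial vestibular nucleus of the mouse, a brainstem centre for head motion signals. Single neurons were picked from C57BL/6 mice aged 24 to 32 days that belonged to 3 transgenic lines, YFP-16, GIN and GlyT2-13, and their amplified cDNA was pooled by type. The excitatory types here are E1 and E2, and the inhibitory types I1a, I1b, I2, I3a and I3b. Each of these 7 types is 1 pool read on 2 technical replicate arrays, 14 arrays in all. The labels give all 3 lines for every pool, so the line behind a given cell is not known, and neither is the number of cells per pool. The lines carry reporters driven by regulatory sequences of Thy1, Gad1 and Slc6a5, which select the neurons that can enter a pool, and the study's design also names a type E3, which was not analysed here.

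IGF1 and IGF2 are secreted peptides that act through the tyrosine kinase receptor encoded by Igf1r, whereas Igf2r encodes a receptor that carries IGF2 and mannose 6-phosphate-bearing enzymes to lysosomes. Outside the cell most IGF is held by binding proteins, and secreted metalloproteinases release it. The protein of Pappa cuts IGF-binding proteins 4 and 5, and that of Pappa2 cuts binding proteins 3 and 5. In the brain IGF1 supports the growth and survival of neurons.

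Values are log2 signals with a lowest value of 2.39, the floor that all arrays share, and a gene was taken as detected when a pool mean reached 5, as 4409 genes (27.1%) did. Over those genes, the 2 arrays of a pool correlated at r = 0.981 to 0.992 and arrays of different pools at 0.847 to 0.960. All 5 neuronal markers measured, among them Snap25 and Rbfox3, reached 5 in every pool. Of 30 markers measured for astrocytes, oligodendrocytes, microglia, endothelium, mural and meningeal cells and choroid plexus, 1 reached 5 in any pool. That marker is Rgs5, a regulator of G protein signalling typical of pericytes. A pool's signal does not separate fewer cells that express a gene from less RNA per cell.

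Among the 9 genes measured, 4 reached 5 in at least 1 pool. Pappa was high in the I2 pool and near the floor in the other 6. Igf1 and Igfbp5 were highest in I3b, and Igf1 was lowest in I2. Igf2r lay near 5 in every pool. The other 5 genes, Igf2, Igf1r, Igfbp2, Igfbp3 and Pappa2, stayed below 5 on every array.

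**Figure D1:**
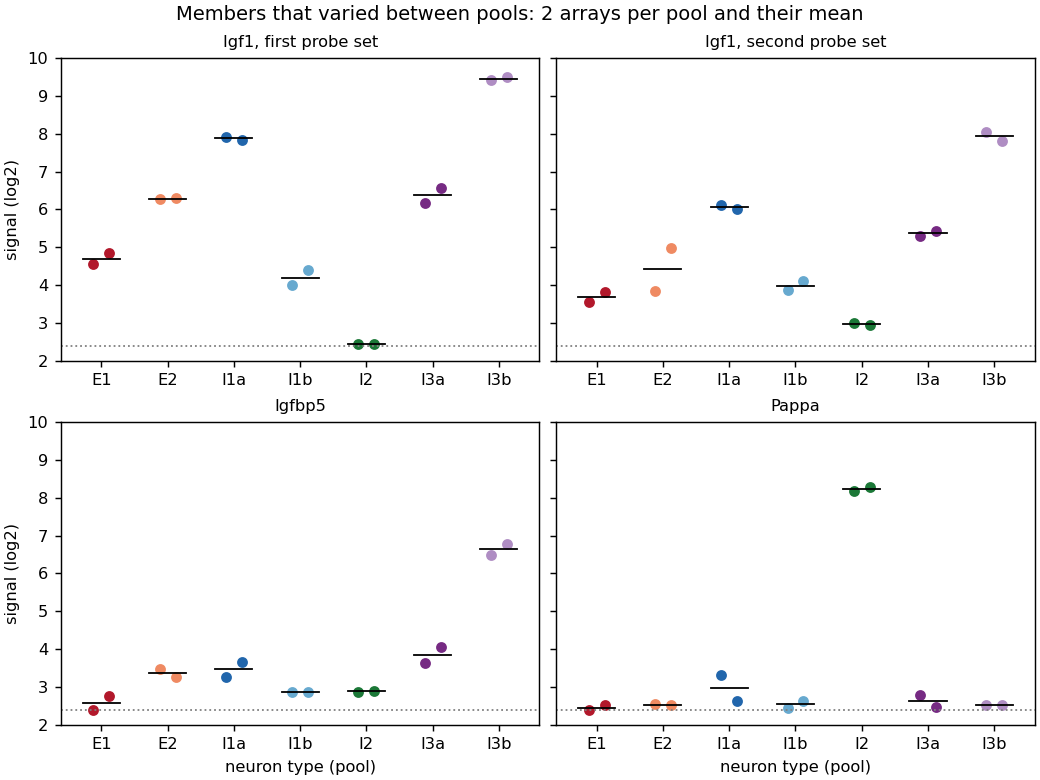
Log2 signal (vertical axis) of Igf1, Igfbp5 and Pappa in the 7 pools (horizontal axis), with a point for each of the 2 arrays, a line at their mean and a dotted line at the floor of 2.39. Pappa stands at 8.23 in I2, while Igf1 and Igfbp5 are highest in I3b at 9.45 and 6.63.

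Igf1, the growth factor of the system, was read by 2 probe sets. By the brighter, the 2 arrays read 9.42 and 9.49 in I3b, 7.92 and 7.84 in I1a, and 6.18 and 6.56 in I3a. They read 6.27 and 6.30 in E2, 4.56 and 4.84 in E1, 3.99 and 4.41 in I1b, and 2.45 on both arrays of I2. I3b is thus high and I2 lies near the floor, with the other 5 pools spread between them over a total span of 7.01 log2 units. The standard deviation between arrays of a pool was 0.17, and neighbouring pools in this order lay more than 2 such deviations apart except I3a and E2, whose means of 6.37 and 6.29 did not.

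The second Igf1 probe set put the same pools at the top and bottom. It averaged 7.93 in I3b, 6.06 in I1a, 5.36 in I3a, 4.42 in E2, 3.99 in I1b, 3.69 in E1 and 2.97 in I2, with a standard deviation between arrays of 0.33. E1 and I1b changed places, and neither E2 and I1b nor I1b and E1 lay more than 2 deviations apart. Over the 7 pools the 2 probe sets correlated at r = 0.96 and rho = 0.96, on the same arrays and RNA.

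Pools of the same family differed in Igf1, with 1 pool per type. I1a averaged 7.88 and I1b 4.20, a difference of 3.68 log2 units, which was 2.08 by the second probe set. I3a averaged 6.37 and I3b 9.45, a difference of -3.08. E1 averaged 4.70 and E2 6.29, a difference of -1.59, which was -0.73 by the second probe set. The E pools overlapped the I pools, and the I1 pools overlapped the I3 pools. The 2 E pools averaged 5.49 ± 1.12 and the 5 I pools 6.07 ± 2.80 (SD over pools), and the 2 I1 pools averaged 6.04 ± 2.60 against 7.91 ± 2.18 in the 2 I3 pools.

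Igf1 is a product of microglia as well as of neurons, and all 5 microglial markers measured were at 2.86 or below in every pool, with a summed signal of 4.71 to 4.82 on the log2 scale. The choroid plexus marker Ttr, a carrier of thyroid hormone, read 4.77 and 5.11 in I3b and 4.08 and 4.79 in I1a, against 2.39 to 2.72 in the other pools. These are the 2 pools with the most Igf1. The other 3 choroid plexus markers measured, Kl, Kcnj13 and Clic6, were at 3.13 or below in every pool. The summed signal of the 4 markers was 5.60 in I3b and 5.35 in I1a, against 4.51 to 4.59 in the other pools. The part of such RNA in the Igf1 values was not tested.

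Igfbp5, the most conserved of the IGF-binding proteins and a substrate of the Pappa protease, read 6.49 and 6.78 in I3b. The next pools were I3a, at 3.64 and 4.06, I1a, at 3.27 and 3.67, and E2, at 3.46 and 3.27. I2 read 2.87 and 2.89, I1b 2.87 on both arrays, and E1 2.39 and 2.76. I3b alone reached 5, and it lay 2.78 log2 units above I3a, with a standard deviation between arrays of 0.21, or 1.63 above it with values under 5 set to 5. Of the other neighbours in the order, E2 and I2 differed by more than 2 such deviations and the rest did not. I3a averaged 3.85 and I3b 6.63, a difference of -2.78, while I1a averaged 3.47 and I1b 2.87, a difference of 0.60. The 2 I1 pools averaged 3.17 ± 0.42 and the 2 I3 pools 5.24 ± 1.97, a difference that rests on I3b. I3a and I1a did not differ by more than 2 deviations, and both were under the level taken as detected.

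Igf1 and Igfbp5 shared their highest pool. Across the 7 pools, which share amplification and arrays, their levels correlated at r = 0.80 and rho = 0.82, at r = 0.71 without I3b, and at r = 0.75 without I2 and I3b, the pools farthest from the Igf1 median. Without I3b, all Igfbp5 means were between 2.57 and 3.85, under the level taken as detected. The r values of 0.71 and 0.75 therefore describe Igfbp5 signal that was not detected. I1a, second for Igf1, had Igfbp5 at 3.47, below the level taken as detected. High Igf1 was therefore seen with detected Igfbp5 in I3b and without it in I1a.

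**Figure D2:**
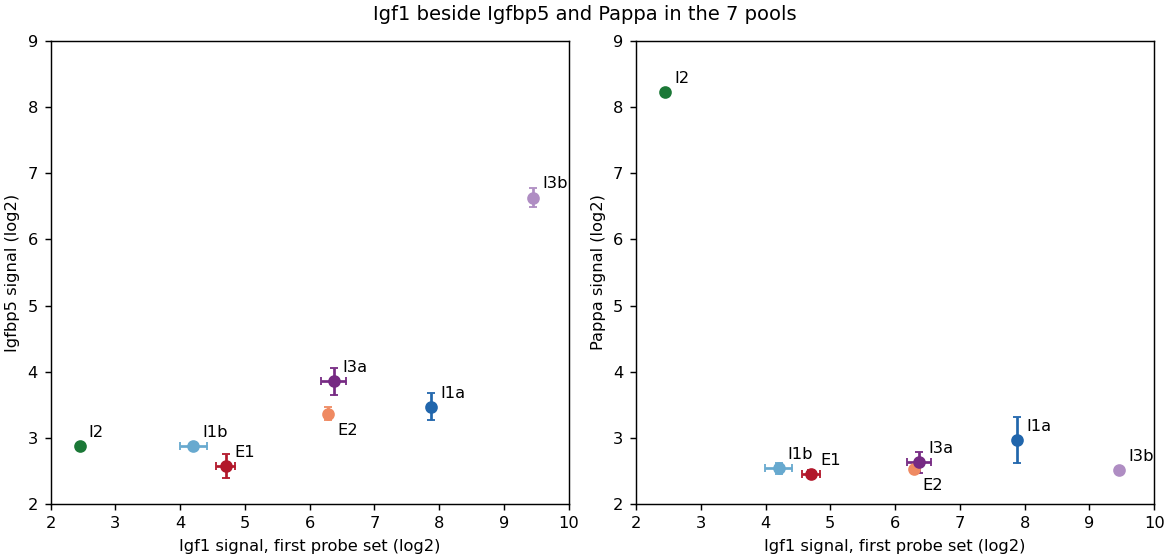
Pool means of Igf1 (horizontal axes, log2 signal, first probe set) against Igfbp5 (left) and Pappa (right), with a labelled point per pool and bars that span its 2 arrays. I3b lies at the top right for Igf1 and Igfbp5, and I2, the pool with the least Igf1, has the Pappa signal.

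Because Igf1 and Igfbp5 were both highest in I3b, the sequence before each start site is shown from the RefSeq promoter table of GRCm38.p6, which held 9 of the 10 genes. The windows are the 250 bases upstream of the start, chr10:87860861-87861110 on the plus strand for Igf1 and chr1:72874866-72875115 on the minus strand for Igfbp5. Capitals mark the E-box CANNTG and the TATA-like words TATAAA and TATTTAA, searched on both strands, and no marked words overlap.
Igf1: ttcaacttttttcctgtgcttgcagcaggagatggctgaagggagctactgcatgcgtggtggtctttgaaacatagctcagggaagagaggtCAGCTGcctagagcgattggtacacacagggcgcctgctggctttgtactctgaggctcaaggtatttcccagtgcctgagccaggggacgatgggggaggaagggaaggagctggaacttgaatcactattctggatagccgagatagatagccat
Igfbp5: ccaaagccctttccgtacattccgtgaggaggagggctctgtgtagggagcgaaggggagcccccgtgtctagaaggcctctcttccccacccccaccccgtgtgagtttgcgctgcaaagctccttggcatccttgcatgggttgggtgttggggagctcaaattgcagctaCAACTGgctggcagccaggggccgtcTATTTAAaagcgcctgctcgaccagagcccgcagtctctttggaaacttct

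Each window held 1 E-box, a word found in 66.2% of 32817 promoter windows of this length. The Igfbp5 window held TATTTAA, present in 4.2% of windows, beginning 51 bases before the start, and the Igf1 window held neither TATA-like word. TATAAA occurs in 12.4% of windows. The GC content was 52.8% for Igf1 and 58.8% for Igfbp5. The arrays do not say which start site was used.

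Pappa, the protease that frees IGF from its binding proteins, was read by 1 probe set at 8.18 and 8.28 in I2. The other pools read 3.32 and 2.62 in I1a, 2.79 and 2.46 in I3a, 2.54 and 2.52 in E2, 2.45 and 2.62 in I1b, 2.51 on both arrays of I3b, and 2.39 and 2.51 in E1. I2 stood 5.26 log2 units above I1a, the next pool, with a standard deviation between arrays of 0.22. No 2 neighbours among the other 6 pools lay more than 2 deviations apart. The difference between the E pools, at 2.49 ± 0.06, and the I pools, at 3.77 ± 2.50, rests on I2, as the I pools other than I2 averaged 2.97 or below. Since 6 pools lie near the floor, the size of the I2 gap depends on where the floor lies, and it was 3.23 with values under 5 set to 5.

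Pappa was detected in I2 alone, and there it was apart from Igf1 and Igfbp5. Igfbp4, which encodes another substrate of the Pappa protease, was not analysed. I2 had Igf1 at 2.45 and Igfbp5 at 2.88, whereas I3b, with Igf1 at 9.45 and Igfbp5 at 6.63, had Pappa at 2.51. In no pool did Pappa reach 5 together with either Igf1 or Igfbp5. Igf1 and Pappa gave r = -0.62 and rho = -0.18 over the 7 pools, and r = 0.85 over the 5 left without I2 and I3b, where all Pappa means were between 2.45 and 2.97.

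With values down to the floor, the Pappa gap in I2 was the largest among the 4409 detected genes in that pool. With values under 5 set to 5 it was the fifth largest, at 3.23, and Cldn1 had the largest, at 3.53. I2 also had the most genes that stood apart, with 208 (4.72%) at least 1 log2 unit above every other pool, against 10 to 32 in each other pool. In I3b 32 genes (0.73%) did so, among them Igfbp5 with the fourth largest gap and Igf1 with the eighth, 1.57 above I1a. These ranks became the fifth and the sixth with values under 5 set to 5, and the ranks on that scale were added after seeing the data. Pappa reached 5 only in I2, and Igfbp5 only in I3b. Both thus counted as detected through that pool alone, so their ranks in it follow in part from the filter and are a description.

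**Figure D3:**
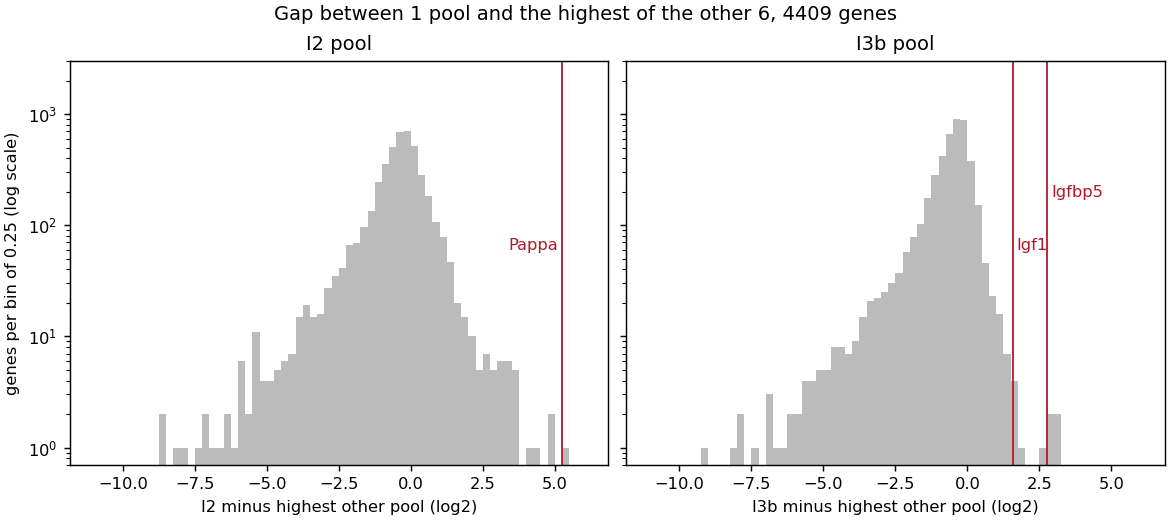
Number of genes (vertical axes, log scale) by the gap between 1 pool and the highest of the other 6 (horizontal axes, log2 units), for I2 on the left and I3b on the right over 4409 genes. Red lines mark Pappa at 5.26 in I2, and Igf1 at 1.57 and Igfbp5 at 2.78 in I3b.

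Markers of mural cells, the pericytes and smooth muscle of vessels, moved with Pappa in part. Rgs5 read 7.30 and 7.41 in I2, against 2.46 to 2.61 in the other pools. Of the 5 mural and meningeal markers measured, the other 4, Pdgfrb, Col1a1, Col1a2 and Dcn, were at 2.85 or below in every pool, and the summed signal of the list was 7.54 in I2 against 4.81 to 4.83 elsewhere. A further list of 13 mural genes was drawn up after the data were seen, and 10 were measured. Of these, Abcc9, a subunit of ATP-sensitive potassium channels, read 5.84 in I2, Pln, a regulator of the calcium pump of muscle, 6.16, and Ednrb, an endothelin receptor, 5.62. The other 7, among them Cspg4, Notch3, Vtn, Myh11 and Acta2, were at 3.01 or below in every pool. The summed signal of this list was 7.75 in I2 and 5.73 to 5.85 elsewhere. The list holds Pln and Ednrb, which are also the genes nearest to Pappa over the pools (r = 0.998 and 0.997). Its sum in I2 thus follows from the choice of genes and is no separate evidence. The part of mural cell RNA in the Pappa value was not tested.

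The genes most like each member were sought among 819 named genes that also spanned 2 log2 units, by Pearson's r over the 7 pool means, which share arrays and carry no p. Nearest to Pappa were Pln (r = 0.998), Ednrb (0.997) and Krt1 (0.997), a keratin of the epidermis that read 5.39 in I2. With a member high in 1 pool, such an r says only that the gene is high in the same pool. Nearest to Igf1 were St6galnac5, a sialyltransferase that makes gangliosides (r = 0.974), Atg4a, a protease of autophagy (0.948), and Rnft1, a membrane ubiquitin ligase (0.945). All 3 kept the order of pools of the brighter Igf1 probe set, with rho = 1.0. That order did not set I3a and E2 apart, and the second Igf1 probe set exchanged E1 and I1b. St6galnac5 stood at 7.16 in I3b, 6.28 in I1a and 3.49 in I2. Nearest to Igfbp5 were Klf6, a zinc finger transcription factor (r = 0.969), Kank2, an actin regulator (0.968), and Crhbp, the binding protein of corticotropin-releasing hormone (0.954), which stood at 8.27 in I3b, 5.30 in I3a and 2.99 or below elsewhere.

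Igf2r, the receptor that clears IGF2, read from 4.66 to 5.45 over the 14 arrays, with a median of 5.06, and its pool means ran from 4.76 in I2 to 5.43 in I1a. No neighbouring pools differed by more than 2 deviations, the deviation being 0.22. The 2 E pools averaged 5.14 ± 0.14 and the 5 I pools 5.04 ± 0.26. A second Igf2r probe set, which the annotation shares with the overlapping antisense gene Airn, stayed between 2.87 and 3.0. The probe set of Igf1r was at the floor of 2.39 on all 14 arrays. A floor reading gives an upper bound for that probe set alone, and it does not show that the neurons lack the receptor.

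Igf2, the second growth factor, was within 0.05 of the floor on 13 of 14 arrays. Igfbp2, a binding protein abundant in the choroid plexus and meninges, stayed within 0.3 of the floor on all 14, as did Pappa2, the second protease. Igfbp3, the main carrier of IGF in blood, read 3.47 and 3.49 in E2, above all 12 other arrays, at 2.46 to 2.88. E1 averaged 2.51 and E2 3.48, a difference of -0.97 with a standard deviation between arrays of 0.14. E2 was still below the level taken as detected.

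**Figure D4:**
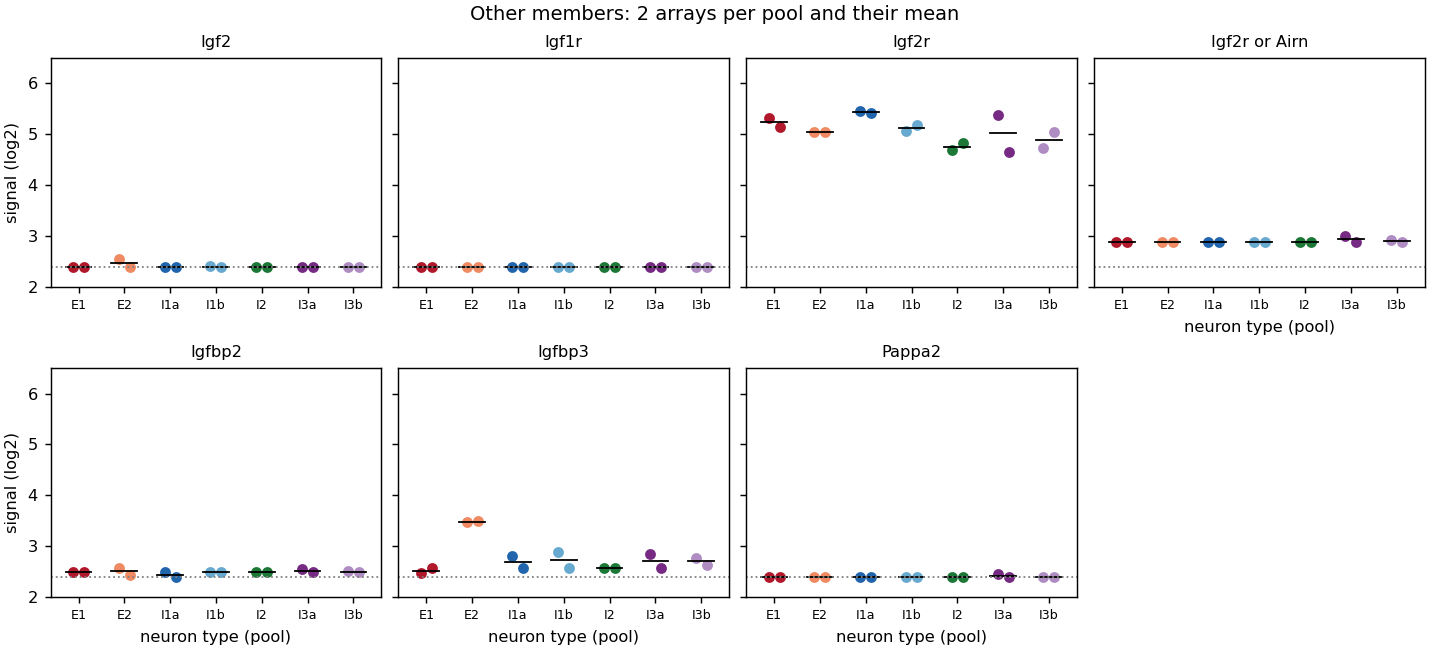
Log2 signal (vertical axis) of the 7 probe sets of Igf2, Igf1r, Igf2r, Igfbp2, Igfbp3 and Pappa2 in the 7 pools (horizontal axis), with a point for each of the 2 arrays, a line at their mean and a dotted line at the floor of 2.39. Igf2r lies near 5 in every pool, and Igfbp3 is higher in E2, at 3.48, than elsewhere.

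What lies around and below the receptors was read from 76 other genes, in lists of extracellular modulators, insulin receptors, receptor adaptors, the PI3K-AKT-mTOR branch, the Ras-MAPK branch, IGF2 mRNA-binding proteins and the growth hormone axis. Of these, 58 had a probe set and 21 were detected: 1 modulator, 1 insulin receptor, 7 adaptors, 9 genes of the PI3K branch and 3 of the Ras branch. They were tested by limma in fits over all 4409 genes and counted as called where the p adjusted by Benjamini-Hochberg was under 0.05 and the pools differed by 1 log2 unit or more. In the comparisons of 2 types the error is that between technical arrays, so these compare pools and not cell types.

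Between E1 and E2, 4 of the 21 were called (19.0%), 2 in each direction, where 7.39% of all genes were called. The median difference was 0.05 for the 21 and 0.04 for all genes. Foxo3, a transcription factor that AKT restrains, read 8.36 and 7.98 in E1 against 6.89 and 6.81 in E2, a difference of 1.32 (SE 0.18, adjusted p 0.000252 by limma). Irs1, the adaptor that links insulin and IGF1 receptors to PI3K, read 6.35 and 6.21 in E1 against 5.20 and 5.21 in E2, a difference of 1.08 (SE 0.22, adjusted p 0.00378 by limma). Both were thus higher in E1, without overlap of arrays, though Foxo3 was not called when its probe sets were averaged (difference 0.88).

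Socs2, a suppressor of growth hormone and IGF1 signalling, read 5.72 and 5.50 in E1 against 7.37 and 7.08 in E2, a difference of -1.62 (SE 0.27, adjusted p 0.000898 by limma). Htra1, a secreted serine protease known to cut IGF-binding proteins, read 6.92 and 6.52 in E1 against 8.61 and 8.10 in E2, a difference of -1.63 (SE 0.32, adjusted p 0.00275 by limma). Both were lower in E1, which also had the lower Igf1 signal of these 2 pools. I3b, the pool with the most Igf1, had both below E1, with Socs2 at 3.88 and Htra1 at 4.01. With averaged probe sets Htra1 was still called, and Socs2 was not tested because its average stayed under 5 in every pool. Over all 7 pools the Htra1 means were lowest in I2, at 3.50, and I3b. The arrays of these pools overlapped, at 3.11 and 3.89 in I2 and 4.22 and 3.81 in I3b, all under the level taken as detected.

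Between I1a and I1b, 2 of the 21 were called (9.52%), where 13.1% of all genes were. The median difference was -0.11 for the 21 and -0.22 for all genes, and quantile normalization moved that of all genes to 0.01. Grb10, an adaptor that damps insulin and IGF1 receptors, read 6.48 and 6.59 in I1a against 7.93 and 8.02 in I1b, a difference of -1.44 (SE 0.14, adjusted p 1.58e-05 by limma). Insr, the insulin receptor, read 5.48 and 5.33 in I1a against 4.46 and 4.17 in I1b, a difference of 1.09 (SE 0.18, adjusted p 0.000565 by limma). The Insr call ended without the second I1b array (difference 0.95) and with values under 5 set to 5 (difference 0.41), and Insr was not tested with averaged probe sets or a filter at 7.

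In the other 3 comparisons none of the 21 was called by limma. Between I3a and I3b, where 9.91% of all genes were called, 12 of the 21 (57.1%) had an unadjusted p under 0.05, as did 41.0% of all genes. Several also had an adjusted p under 0.05 by limma and missed the call only because they differed by less than 1 log2 unit. Among them were Sos2, lower in I3a (difference -0.82, adjusted p 0.00055 by limma), and Foxo3, higher in I3a (difference 0.89, adjusted p 0.00282 by limma). The median difference was 0.11 for the 21 against -0.09 for all genes. The E pools against the I pools had 2 of 21 (9.52%) under that level against 6.19% of all genes, with 0.0227% of all genes called and medians of -0.11 and -0.01. The I1 pools against the I3 pools had 3 of 21 (14.3%) against 11.2% of all genes, with 0% of all genes called and medians of -0.07 and -0.04. Apart from Foxo3, no gene of the 9 in the PI3K branch or the 3 in the Ras branch was called in any of the 5 comparisons.

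**Figure D5:**
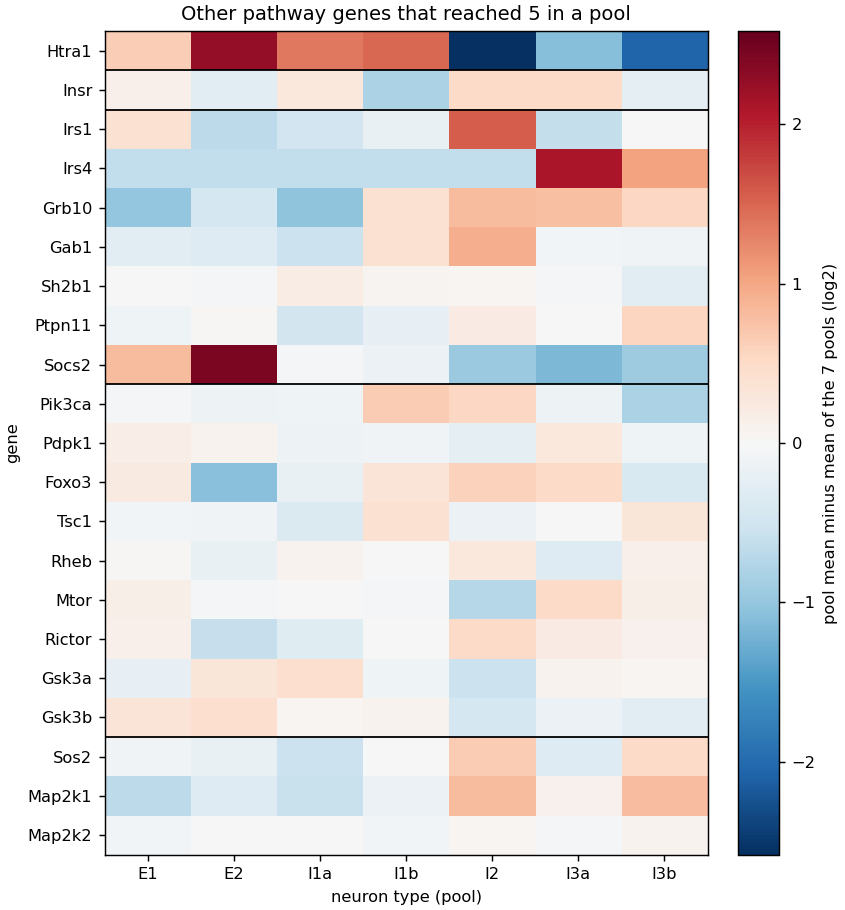
The 21 other pathway genes that reached 5 in a pool (rows, grouped by list between black lines) in the 7 pools (columns), coloured by pool mean minus the mean of the 7 pools in log2 units. Htra1 is highest in E2 at 8.36 and lowest in I2 at 3.50, and Socs2 is highest in E2 at 7.23.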

How the data were processed

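Per the submitters' processing notes the authors used affy and GCRMA, whose versions are not given in the sources used here, and deposited log2 signals for 30843 probe sets. Base 2 is the usual output of GCRMA and fits the range of 2.39 to 15.9. On each array 15.1% to 16.4% of probe sets reached 5, which takes the place of depth, and the number of pools limits the precision. Symbols come from the platform annotation, with 24034 probe sets mapped to 1 symbol, 477 to several and 6268 to none, and 23896 matched GRCm38.p6 RefSeq through Entrez identifiers.

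Each gene was represented by its brightest 1-symbol probe set and tested if a pool mean reached 5. E against I and I1 against I3 were fitted on 7 pool means (I1 against I3 with E, I1, I2 and I3 as families), and pairs of types on all 14 arrays, with lmFit and eBayes with an intensity trend (limma 3.58.1, R 4.3.3). The fits were tested on simulated data. Members, lists, comparisons and alternatives were chosen with earlier results of these data known. Genes named were all members, pathway genes called (up to 6 per comparison), the listed markers, and the 3 nearest genes of each member that reached 5 and spanned 2 log2 units. Figures used matplotlib 3.10.9.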

Additional observations from a re-analysis of the deposited data

Results flagged for a closer look

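Within the 5 inhibitory pools, 8 of 20 features looked at had a highest or lowest pool mean far from the rest by Dixon's ratio, and chance alone marks about 1 in 20 groups. Over all 4409 detected genes the same limit was met by 408 (9.3%). The IGF genes among the 20 were chosen with their levels known, and the lists of other genes with earlier results of these data known. The ratios are therefore a description, and 8 of 20 is no measure of an excess over chance. Pappa was high in I2 (8.23 against 2.97 in the nearest pool, ratio 0.920), as was Rgs5 (7.35 against 2.49, ratio 0.998). Igfbp5 was high in I3b (6.63 against 3.85, ratio 0.740). Irs1 was high in I2 (7.46 against 5.90, ratio 0.713), and Grb10 was low in I1a (6.54 against 7.98, ratio 0.777). The astrocyte gap junction gene Gja1 was high in I3a (4.19 against 2.66, ratio 0.853), while the other 5 astrocyte markers were within 0.3 of the floor in every pool. Igf2, highest in I1b at 2.39, and Pappa2, highest in I3a at 2.41, met the same limit at levels that do not leave the floor.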

How the results depend on the processing

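With 1 pool per type and 2 technical arrays, no result carries biological replication. Gaps above the next highest pool kept their direction under every alternative run. With values under 5 set to 5, Pappa in I2 had 3.23 and Igfbp5 in I3b 1.63 (-1.63 for I3a minus I3b). The Igf1 gap in I3b was 1.30 after quantile normalization and 1.87 by its second probe set. That probe set gave Igf1 -0.73 for E1 minus E2, 2.08 for I1a minus I1b and -2.57 for I3a minus I3b. For I1a minus I1b, Igf1 was 3.91 after quantile normalization and 2.88 with values under 5 set to 5, where E1 minus E2 was -1.29. Without replicate 1 or 2 of each pool, the Pappa gap ran from 4.86 to 5.66 and Igf1 for I1a minus I1b from 3.43 to 3.94.

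Counts over all genes moved more. For E against I, 2 genes were called without the filter, with a filter at 7 or with values under 5 set to 5, 0 without the intensity trend, and 0 to 2 with a replicate or pool left out. For I1 against I3 the counts were 1 without the filter, 1 without the trend and 2 with values under 5 set to 5. With a filter at 7, averaged probe sets and values under 5 set to 5, in that order, calls were 193, 187 and 217 for E1 against E2, 304, 309 and 358 for I1a against I1b, and 218, 246 and 256 for I3a against I3b, against 326, 579 and 437. Fewer genes were tested in the first of these settings (2416) and the second (3164). Quantile normalization moved the share of calls higher in the first pool to 44.9% for I1a against I1b (25.6% before) and 41.8% for I3a against I3b (30.2% before).

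Of the 21 pathway genes, calls for E1 against E2 were 2 with averaged probe sets, where 15 of the 21 were tested. For I1a against I1b they were 1 with a filter at 7, averaged probe sets or values under 5 set to 5, and 1 to 3 with an array left out. For I3a against I3b they were 2 after quantile normalization, 1 with averaged probe sets and 0 to 2 with an array left out. Without the filter, 58 pathway genes were tested for I3a against I3b. The 1 gene called there was lower in I3a and was not among the 21. With the replicate number as a block the counts were 4, 2 and 0 for the 3 pairs, and 327, 579 and 436 over all genes. Replicate numbers did not pair the arrays, as 4 of 21 pairs of pools had a correlation of deviations over 0.1 (range -0.12 to 0.21).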

Other observations

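Other genes of the pathway also differed between pools, and they are named after their values were seen. Irs4, a receptor adaptor of restricted expression, read 6.14 and 4.12 in I3a and 4.0 and 4.13 in I3b, and was at the floor of 2.39 on the 10 other arrays. The difference of the I1 pools from the I3 pools was -2.21 (SE 0.49), with an adjusted p of 0.256 by limma over 4409 genes. Irs1 read 7.49 and 7.43 in I2 and 5.03 to 6.35 on the other 12 arrays. In the I2 pool 208 genes (4.72%) stood at least 1 log2 unit above every other pool. Ghr, the growth hormone receptor, read 3.24 and 4.02 in I2 and 2.65 or below elsewhere, under the level taken as detected. Socs2 averaged 5.61 in E1 and 7.23 in E2, against 3.65 to 4.75 in the inhibitory pools. Its difference between the E and I pools was 2.26 (SE 0.51), with an adjusted p of 0.737 by limma, and so was not called.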
